A study of Mus musculus with 48 samples.

Results

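The comparison described here sets hippocampal astrocytes of mice labelled Gabbr1 cKO against those of mice labelled Gabbr1 control, both at postnatal day 28 (P28). Its members are all libraries of the P28 hippocampus table, 6 of the 48 libraries of the series: 2 controls (control 1 and 2) and 4 knockouts (cKO 1 to 4). A cKO, or conditional knockout, removes a gene only in chosen cells, and Gabbr1 is the gene removed here. Tamoxifen, the drug that switches on an inducible Cre recombinase, is the labelled treatment of both groups, so the controls received it too. The rest of the series covers astrocytes of cortex and olfactory bulb at P28 in the same genotypes, and a developmental course. The Cre driver, how astrocytes were separated from other cells, the animal behind each library, and the sex of the animals are not given in the sources used here. The p-values therefore measure the spread between these 6 libraries, which may be technical in part.

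GABA is the main inhibitory transmitter of the brain. Its metabotropic receptor, the GABA-B receptor, works as a pair of subunits: GABBR1, encoded by Gabbr1, binds GABA, and GABBR2, encoded by Gabbr2, couples to inhibitory G proteins of the Gi/o class. In neurons these G proteins lower cyclic AMP and open potassium channels, while in astrocytes the receptor is known for raising intracellular calcium. Hippocampal astrocytes are bushy glial cells that take up glutamate and GABA, buffer potassium, secrete factors for synapses and engulf synaptic material. The comparison asks which of their transcripts differ when Gabbr1 is removed.

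Each library held 2963861 to 6352384 reads on genes, and 2946250 to 3997027 without Rn45s, the precursor of ribosomal RNA. Library cKO 2 stood apart. Rn45s took 0.594% of its reads against 28.6% to 38.0% in the other 5 libraries, and 12381 genes had a read in it against 14421 to 16182. It was also the only library with high Xist, the RNA of the inactive X chromosome (11970 normalized reads, against 0 to 7.70 elsewhere), and without reads of the Y-linked gene Ddx3y (611 to 969 elsewhere). In cKO 2 the sex of the animal, the RNA composition and the single library cannot be told apart. Pearson's r over log2 values, across genes, was 0.732 to 0.789 between cKO 2 and the others and 0.881 to 0.932 among the others. The differences of the genes chosen for their size, and the list medians described below, are therefore given with and without cKO 2. The labels also number the libraries, and only cKO 1 has a number between those of the controls, while cKO 2 to 4 have later ones. What the numbers stand for is not given, so late numbers and genotype cannot be told apart beyond cKO 1. A term for numbers above 150, chosen after seeing the data, therefore leaves the hippocampal difference to rest on cKO 1 against both controls. Its values are given beside only some of the genes and list medians it moves, and others moved as well. Among genes, Adamts20 went from 2.59 to 1.86, Pcdh1 from 1.67 to 1.14 and Vsnl1 from 2.64 to 2.115. Kcnk1 and Cog2, given below, also shrank. So did Ednra (2.004 to 1.772), Slc13a3 (1.407 to 1.047), Vcl (1.355 to 1.056), Slc1a4 (1.329 to 1.135) and Mertk (1.152 to 0.94). Etnppl barely moved (1.94 to 1.916). The difference grew in size for Rasgrp1 (1.279 to 1.501), Lbp (-1.72 to -1.882) and Gabbr1 (-1.842 to -2.26). Among lists, the median went from -0.03 to 0.46 for the GABA-B receptor and partners, and from 0.91 to 0.62 for other transmitter receptors. For mural and fibroblast cells it went from 0.84 to 0.52. All 20 astrocyte identity genes, among them Aldh1l1, Slc1a3 and Aqp4, passed the filter on low values (a mean of at least 10 normalized reads). So did all 12 markers of mature oligodendrocytes and all 9 of their precursors, so passing the filter does not identify the cell type.

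Gabbr1 (chr17:37045966-37075067, mm10, plus strand) was lower in each cKO library than in each control. Its normalized read count was 779.8 in control 1 and 824 in control 2. It was 167 in cKO 1, 379.9 in cKO 2, 151.7 in cKO 3 and 256 in cKO 4. The groups did not overlap, and cKO 2 kept the most. Relative to the controls, the mean of the cKO group stood at 29.8%, and at 23.9% without cKO 2. The log2 difference, always cKO minus control on log2(normalized count + 1), was -1.84 (SE 0.39, 95% interval -2.72 to -0.97). Its limma p was 9.37e-04 unadjusted and 0.936 adjusted over 11639 genes. The exact two-sided permutation p over libraries, taken as 2 times the smaller one-sided share, was 0.133. With that definition it is the smallest that 4 libraries against 2 can give. Without cKO 2 the difference was -2.10 (SE 0.26), and Gabbr1 fell past the threshold with a limma adjusted p of 0.0294. The exact permutation p was then 0.2, the smallest possible with the same definition. That limma call was lost under several alternatives, with an adjusted p of 0.871 with no filter on low values, 0.604 without trend and 0.108 after quantile normalization, and when either control, cKO 1 or cKO 3 was also left out. The counts are for the whole gene, and deleted and remaining exons are not separated. In bulk samples, fewer cells of a type and less RNA per cell cannot be told apart.

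Gabbr2, the partner that carries the signal, showed no such separation. The controls had 149.4 and 190.4 normalized reads against 263, 93.9, 164 and 185 in cKO 1 to 4. The control values lay within the cKO range, and cKO 2 held the lowest count. The log2 difference was -0.03 with a 95% interval of -0.97 to 0.92 (limma adjusted p 0.993), and 0.24 with an interval of -0.37 to 0.86 without cKO 2. Changes within these intervals were not detectable with these libraries. With the term for library numbers the difference was 0.64 (SE 0.55). Kctd12 and Kctd12b, auxiliary subunits of the receptor, overlapped between groups, at 303 to 366 and 208 to 242 in the controls against 169 to 424 and 164 to 475 in the cKO libraries. Over the 5 tested genes of the receptor and its partners the median log2 difference was -0.03, or 0.06 without cKO 2.

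**Figure D1:**
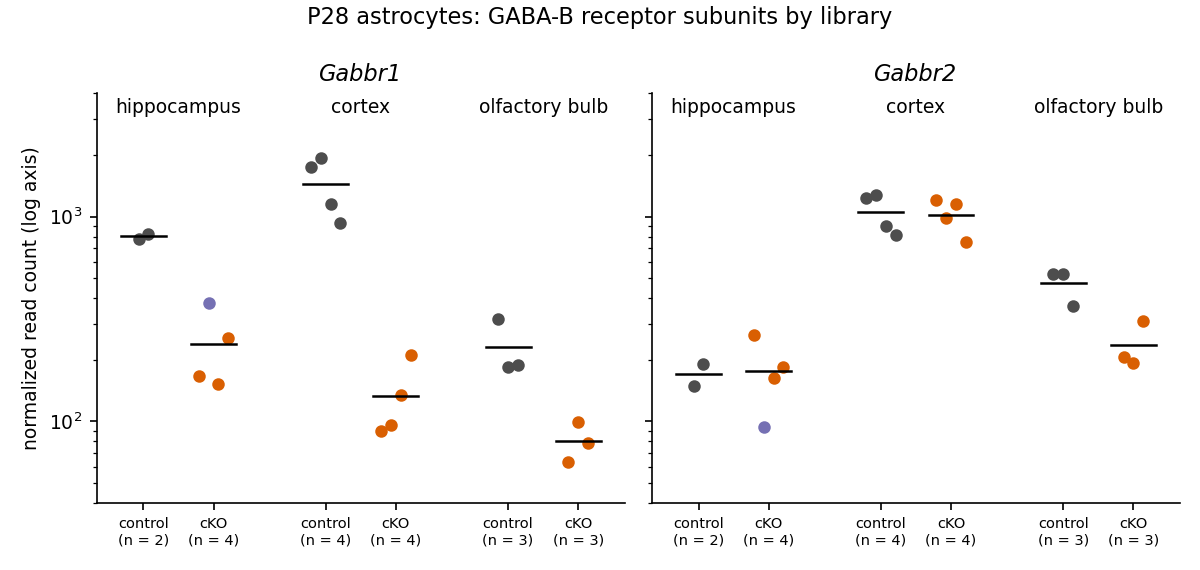
Normalized read count (log axis) of Gabbr1 (left) and Gabbr2 (right) in each P28 library, by region and genotype; black lines are group means, and the violet point in the hippocampus is cKO 2. Hippocampal Gabbr1 sits at 779.8 and 824 in the controls and at 151.7 to 379.9 in the cKO libraries, while Gabbr2 overlaps; each region was scaled on its own, so heights are comparable within a region.

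Across the transcriptome no gene passed an adjusted p under 0.05 with all 6 libraries in limma (0% of 11639 genes tested). An unadjusted p under 0.05 was reached by 296 genes, of which 191 were higher in cKO (1.64% of those tested) and the rest lower (0.902%). If no gene differed, a share of about 0.05 would reach that level, and the share here was smaller. The quasi-likelihood test of edgeR on the recovered reads also called 0 genes after adjustment, with 332 at an unadjusted p under 0.05. DESeq2 called 1 gene of 17254 with an adjusted p (0.0058%), Vsnl1, and gave 606 genes an unadjusted p under 0.05. Without cKO 2, limma called 1 gene (0.00859%) and edgeR 1 of 12288 (0.00814%), both times Gabbr1. Limma then gave 676 of the 11639 genes an unadjusted p under 0.05, slightly more than a share of 0.05. DESeq2 then called 12 of 12009 genes (0.0999%), 9 higher and 3 lower. Those 12 were Abcc9, Ednra, Etnppl, Kcnk1, Laptm5, Pcdh1, Slc1a4, Vcl and Vsnl1 (higher) and Cog2, Gabbr1 and Lbp (lower). All but 1 of them, 11 genes, also had groups that did not overlap over the full 6 libraries. The calls came from the same libraries without cKO 2, so this separation was largely fixed by the choice of genes. With all 6 libraries, groups did not overlap for 824 genes higher in cKO (7.08%) and 922 lower (7.92%).

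A rule on size, separation and agreement with and without cKO 2 passed 18 genes higher in cKO and 3 lower. The 10 largest of the former and all of the latter are described here. They were chosen from these libraries, so their values are a description. Abcc9 and Laptm5 fall outside this rule and were named after their values were seen. None of the 13 passed limma's adjusted threshold with all libraries (adjusted p 0.936 for each).

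Several of the 10 handle ions and small molecules. Kcnk1 (chr8:125995170-126030685), a leak potassium channel expressed by astrocytes, was 262 and 129.9 in the controls against 442, 878, 786 and 756 in cKO 1 to 4. The control mean was 196 ± 93.4 (SD, n = 2) and the cKO mean 716 ± 189 (SD, n = 4), a 3.65-fold difference. Among the cKO libraries, cKO 1, the one numbered among the controls, was lowest, and the log2 difference was 1.26 (SE 0.49) with the term for library numbers. The lowest cKO library exceeded the higher control. Its log2 difference was 1.90 (SE 0.38), and 1.79 without cKO 2 (limma adjusted p 0.481, DESeq2 adjusted p 0.00107). Slc1a4, a transporter of serine and other neutral amino acids, was 214 and 311 in the controls against 567, 869, 547 and 658 in the cKO libraries. Its cKO libraries lay close together except cKO 2, and the difference was 1.33 (SE 0.31), or 1.19 without cKO 2. Slc13a3, a sodium-coupled carrier of dicarboxylates such as N-acetylaspartate, was 76.7 and 45.4 against 123, 228, 177 and 125. The difference was 1.41 (SE 0.41), or 1.23 without cKO 2.

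Etnppl (chr3:130617448-130637521), an enzyme that breaks down phosphoethanolamine and is strongly enriched in astrocytes, gave the tightest cKO group of the 10. It was 24.2 and 44.5 in the controls against 127, 139, 137 and 115 in the cKO libraries. The cKO mean was 129 ± 11.1 (SD, n = 4) against 34.4 ± 14.3 (SD, n = 2), and here cKO 2 lay with the other cKO libraries. The difference was 1.94 (SE 0.40) with all libraries and 1.91 without cKO 2.

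Signalling genes were also among them. Vsnl1, a calcium sensor protein best known from neurons, was 16.4 and 16.9 in the controls against 75.5, 161.8, 70.3 and 166 in the cKO libraries, with the widest gap of the rule's genes (log2 difference 2.64, SE 0.52, or 2.46 without cKO 2). Vsnl1 passed DESeq2 with all libraries (adjusted p 0.0222) and not limma or edgeR. Ednra, the type A endothelin receptor, was 53.2 and 56.0 in the controls against 189, 498, 226 and 114 in the cKO libraries. Its cKO values were widely spread, with cKO 2 highest, and the difference was 2.00 (SE 0.53), or 1.62 without cKO 2. Rasgrp1, an exchange factor that activates Ras, was 129.8 and 153.9 against 402, 461, 287 and 265 (difference 1.28, SE 0.33, or 1.14 without cKO 2).

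The remaining ones act in adhesion and matrix. Vcl, or vinculin, links adhesion sites to actin and was 205 and 314 in the controls against 529, 904, 517 and 723 in the cKO libraries (difference 1.35, SE 0.33, or 1.196 without cKO 2). Vcl overlaps Ap3m1 on the other strand, and without a stated strand setting their shared reads cannot be assigned: Ap3m1 was 328 and 358 in the controls against 379 to 564 in the cKO libraries. Pcdh1, a protocadherin of the cell surface, was 68.0 and 83.6 against 168, 477, 208 and 209 (difference 1.67, SE 0.44). Library cKO 2 was far above the other cKO libraries for Pcdh1, and the difference was 1.35 without it. Adamts20, a secreted protease that cuts matrix proteoglycans, was 10.2 and 41.8 against 78.4, 222, 94.2 and 175 (difference 2.59, SE 0.64, or 2.33 without cKO 2). Its controls differed widely from each other.

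The 3 lower genes were Gabbr1, Cog2 and Lbp. Cog2 (chr8:124520767-124552008), part of a complex that tethers vesicles at the Golgi, was 594 and 538 in the controls against 292, 33.2, 117 and 104 in cKO 1 to 4. Every cKO library was below every control, with cKO 2 lowest, and the difference was -2.43 (SE 0.68), or -1.88 without cKO 2. With the term for library numbers it was -0.95 (SE 0.74). Lbp, a secreted protein that binds bacterial lipopolysaccharide, was 1582 and 704 in the controls against 286, 444 and 527 in cKO 1, 3 and 4, with cKO 2 lower still (difference -1.72, SE 0.51, or -1.38 without cKO 2). The order of the 6 libraries for Lbp can be set beside that of Ttr, the main transcript of choroid plexus, which was 127692 and 61859.8 in the controls against 46711.5, 9617, 64702 and 121474 in cKO 1 to 4. Control 1 was highest and cKO 2 lowest for both genes. The part of choroid plexus RNA in the Lbp difference was not tested.

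**Figure D2:**
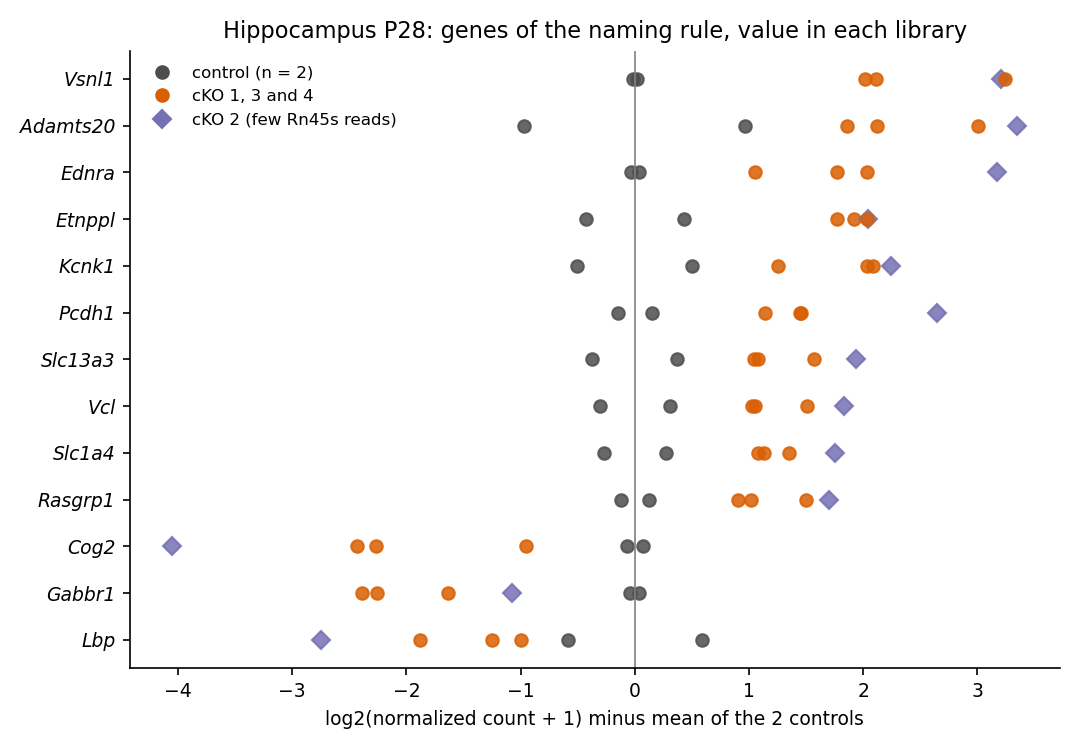
Difference of each library from the mean of the 2 controls, on log2(normalized count + 1), for the 10 genes with the largest positive and the 3 with negative differences under the naming rule; grey, controls; orange, cKO 1, 3 and 4; violet diamonds, cKO 2. Library cKO 2 lies farthest from the controls for every gene shown except Vsnl1 and Gabbr1, and of the cKO libraries it is nearest to them for Gabbr1.

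Averaged over the 10 higher genes, the libraries stood at -0.14 and 0.14 (controls 1 and 2) and at 1.48, 2.39, 1.64 and 1.74 (cKO 1 to 4) on the log2 scale relative to the control mean. That all cKO libraries lie above both controls was fixed by the choice of genes. Library cKO 2, which kept the most Gabbr1 counts, had the highest mean.

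Promoter sequences of these genes were read from RefSeq (GRCm38.p6), in windows of 300 bases around a transcription start, because Gi/o signalling acts on cyclic AMP and the cyclic AMP response element is a short, well-defined motif. Windows were found for 11 of the 13 genes. The full element TGACGTCA was in none of them, against 1.79% of all 32851 windows in the table, and its core TGACG, searched on both strands and contained in the full element, was in windows of 3 genes (Slc1a4, Slc13a3 and Cog2), against 20.8% of all windows. The share is near that background. Shown are a higher gene with the core, the lower gene with it, and the higher gene Kcnk1 without it, in lower case with the core in capitals (CGTCA is the core read on the other strand). The windows lie at chr11:20332664-20332963 (minus strand), chr8:124520517-124520816 (plus strand) and chr8:125994852-125995151 (plus strand).
Slc1a4: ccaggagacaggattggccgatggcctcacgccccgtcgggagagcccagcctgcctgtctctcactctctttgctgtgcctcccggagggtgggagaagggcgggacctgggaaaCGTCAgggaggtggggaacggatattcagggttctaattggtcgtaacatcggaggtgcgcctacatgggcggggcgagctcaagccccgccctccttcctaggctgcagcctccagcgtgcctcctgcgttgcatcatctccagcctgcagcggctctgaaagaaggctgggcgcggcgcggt
Cog2: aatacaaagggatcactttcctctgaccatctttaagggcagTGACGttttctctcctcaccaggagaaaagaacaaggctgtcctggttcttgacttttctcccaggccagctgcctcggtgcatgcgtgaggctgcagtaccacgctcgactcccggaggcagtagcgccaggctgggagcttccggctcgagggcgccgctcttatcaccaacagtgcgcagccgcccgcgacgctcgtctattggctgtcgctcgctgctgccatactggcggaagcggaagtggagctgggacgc
Kcnk1: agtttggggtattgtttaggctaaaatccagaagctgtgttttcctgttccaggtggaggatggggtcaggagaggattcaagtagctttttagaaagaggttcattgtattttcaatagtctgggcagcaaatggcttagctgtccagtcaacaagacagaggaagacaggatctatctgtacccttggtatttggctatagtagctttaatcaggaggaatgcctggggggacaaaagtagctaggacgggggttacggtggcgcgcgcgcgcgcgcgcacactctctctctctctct
A match is a description of these letters, and a missing one says only that they are not in this window.

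The lists that follow were read as counts, with the median log2 difference of the members that passed the filter set beside -0.04, the median of all 11639 genes tested (-0.02 without cKO 2), of which 47.5% were above 0. Counts of members higher or lower without overlap are to be read against 7.08% and 7.92% of all tested genes, and counts at an unadjusted p under 0.05 against 1.64% higher and 0.902% lower. Lists and members were chosen with earlier results of these data known, so the counts are a description and no test of a list. In each list, members named with p-values are limma's unadjusted ones, and besides Gabbr1 without cKO 2 no member of any list passed limma's adjusted threshold.

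Of 34 genes that act in the Gi/o pathway downstream of the receptor, 31 were tested, with a median of 0.05 (0.02 without cKO 2). Kcnj3, a potassium channel subunit that Gi/o proteins open, was 7.80 and 11.6 in the controls against 37.8, 37.6, 48.7 and 53.9 in the cKO libraries (difference 2.09, p 0.00504). Rgs5, which speeds the shut-off of G proteins and also marks pericytes, was 12.5 and 16 against 88.1, 41.9, 39.9 and 50.1 (difference 1.81, p 0.00988). These were the 2 members at an unadjusted p under 0.05. The alpha subunit genes Gnai2 and Gnao1 overlapped: Gnai2 was 643 and 666 in the controls against 425 to 1091 in the cKO libraries, and Gnao1 was 2246 and 3227 against 2428 to 10362, the last in cKO 2. None of the adenylyl cyclases, the enzymes that make cyclic AMP, reached p under 0.05.

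Calcium signalling genes had a median of -0.19 over 21 tested members, and 0.01 without cKO 2 (0.09 with the term for library numbers). Stim2, the sensor of calcium stores, was 306 and 335 in the controls against 168, 47.7, 182 and 215 in the cKO libraries. The groups did not overlap, and the difference was -1.26 (p 0.0494), or -0.77 (p 0.00736) without cKO 2. Itpr2, the calcium release channel typical of astrocytes, was 696 and 774 against 701 to 1065 and overlapped (difference 0.23, 95% interval -0.41 to 0.88).

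The ionotropic GABA-A receptor had 9 of 17 subunit genes above the filter, with a median of 0.55 (0.35 without cKO 2, and 0.36 with the term for library numbers). Gabra2 had the highest value of the list in any library, 1458.9. Gabrb1 and Gabrg1 are also subunits used by astrocytes. Gabrb1 was 262 and 330.1 in the controls against 377, 553, 377 and 369.6 in the cKO libraries (difference 0.49, p 0.129). Gabrg1 was 436 and 528 against 626, 1024, 596 and 639.9 (difference 0.55, p 0.102). Both were higher in every cKO library than in either control, as were 4 of the 9 members in all (7.08% of all tested genes), but none reached an unadjusted p under 0.05. Of the genes for GABA uptake and breakdown, Abat, which degrades GABA, was lower in each cKO library, at 2111 and 2214 against 1976, 1449, 1709 and 1023 (difference -0.53, p 0.122). Slc6a11, the transporter GAT3, overlapped, at 1789 and 2230.4 against 1972 to 3715. The median of the 8 tested members was 0.01, or -0.07 without cKO 2 and 0.39 with the term for library numbers.

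The endothelin pathway, besides Ednra above, includes Ednrb, the astrocyte-rich type B receptor, and Ece1, the enzyme that activates endothelins. Ednrb was 1600.3 and 1719.7 in the controls against 2133, 2583, 2365 and 2370.3 in the cKO libraries (difference 0.51, p 0.0743), and Ece1 was 181 and 202 against 424, 246, 261 and 320 (difference 0.68, p 0.0607). All 3 genes were higher without overlap, of 5 tested, against 7.08% of all tested genes. The ligand gene Edn3 was 25.8 and 24.0 against 7.2 to 40.8, and Edn1 and Edn2 were below the filter.

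Regulators of astrocyte shape numbered 25, and the list as a whole did not lean one way once cKO 2 was left out (median 0.12, or -0.03 without it). Of its members, 7 were higher without overlap and 1 lower, and 5 were at an unadjusted p under 0.05, all higher. Over all tested genes the shares were 7.08%, 7.92% and 1.64%. Besides Vcl these were Megf10, Gja1, Gjb6 and Fgfr3. Gja1, connexin 43 of astrocyte gap junctions, was 1706 and 2284 in the controls against 2654, 4161, 3569.8 and 3522 in the cKO libraries (difference 0.80, p 0.0242). Gjb6, connexin 30, was 538 and 873 against 991, 1544, 1115 and 1182 (difference 0.80, p 0.0268). Both connexins were thus higher in each cKO library. Ezr, the membrane linker ezrin of fine processes, was lower at 2069.6 and 1854 against 1420.5, 1229, 1835 and 1564 (difference -0.39, p 0.183). Genes of the cytoskeleton machinery overlapped, Rhoa with 878 and 907 against 777 to 1278 and Rac1 with 3119 and 3117 against 2849.8 to 4801.

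Astrocyte identity genes leaned higher in cKO, with 17 of 20 differences above 0 and a median of 0.28 (0.32 without cKO 2, and 0.51 with the term for library numbers). Of the 20, 7 were higher without overlap and 2, Gja1 and Fgfr3, had an unadjusted p under 0.05 and were higher, against 7.08% and 1.64% of all tested genes. Aqp4, the water channel of endfeet, was 3729 and 4149 in the controls against 5066, 14462, 6276 and 6416 in the cKO libraries (difference 0.91, p 0.0648). Slc1a3, the glutamate transporter GLAST, was 8668 and 11612 against 15450.4, 21534, 13857 and 13341 (difference 0.65, p 0.125). Slc1a2, the transporter GLT-1, overlapped, at 134875 and 144017 against 90584 to 317179, and so did Gfap, at 1115 and 969.7 against 591 to 2029. The marker Aldh1l1 was 328 and 507 in the controls against 631, 195, 411 and 419.7 in the cKO libraries. Summed over the list, levels were 216866 and 248274 in the controls, 507567 in cKO 2 and 186273 to 331906 in the other cKO libraries.

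Receptors for other transmitters had the highest median of the astrocyte lists, 0.91 over 10 tested genes of 16 and 0.66 without cKO 2. The 4 members at an unadjusted p under 0.05 were adrenergic receptors and P2ry12, and all 4 were higher without overlap, against 1.64% and 7.08% of all tested genes. Adra1a, through which noradrenaline raises astrocyte calcium, was 6.30 and 52.5 in the controls against 65.8, 250, 55.9 and 56.2 in the cKO libraries (difference 2.12, p 0.0363). Adra2a was 16.4 and 12.5 against 23.2, 82.3, 96.6 and 41.6 (difference 1.81, p 0.0239), and Adrb1 was 8.60 and 8.90 against 30, 141.6, 16 and 33.9 (difference 2.04, p 0.0397). P2ry12, a purine receptor that also defines microglia, is given with those markers below. Levels of these receptors were low, and without control 2 the median of the list was 1.71.

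Homeostatic and uptake lists were mixed. Among 13 potassium and water genes (median 0.38, or 0.17 without cKO 2), Kcnk1 alone had an unadjusted p under 0.05. Kcnj10, the main inward rectifier of astrocytes, was 3981 and 4941 in the controls against 8009, 13308, 4307 and 2084 in the cKO libraries, with controls inside the cKO range. Of 14 glutamate genes (median 0.28, or 0.13), none had an unadjusted p under 0.05 with all libraries. Glul, glutamine synthetase, was 11343 and 14977 against 9695 to 19017.

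Phagocytosis genes were higher without overlap in 5 of 10 members, with 1 lower (7.08% and 7.92% of all tested genes), and the median was 0.39 (0.28 without cKO 2). Mertk, a receptor for dying cells and synaptic debris, was 370 and 723 in the controls against 994, 1121, 1106 and 1426 in the cKO libraries (difference 1.15, p 0.00558). Megf10, its companion in synapse removal and also a regulator of shape, was 238 and 375 against 525, 968, 609 and 552 (difference 1.10, p 0.00912). Gas6, a ligand that bridges debris to Mertk, was lower in each cKO library, at 1165 and 741 against 585, 88.1, 684 and 725, and its difference moved from -1.21 to -0.49 without cKO 2.

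Among 18 tested genes for secreted synapse factors the median was 0.11 (0.09 without cKO 2). Bcan, the matrix proteoglycan brevican, was 668 and 884 in the controls against 1508, 2597, 1166 and 1515 in the cKO libraries (difference 1.08, p 0.0116). Chrdl1, which matures glutamate receptors at synapses, was 187 and 110.3 against 261, 527, 239 and 197 (difference 0.98, p 0.0487). Thbs2, a thrombospondin that promotes synapse formation, was lower at low counts, at 28.9 and 39.1 against 11.6, 2.9, 6.4 and 21.6 (difference -1.87, p 0.0719). Sparcl1, also called hevin, overlapped at 24618 and 29890.3 against 24472 to 65148.

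State and metabolism lists gave few members at an unadjusted p under 0.05. Of 18 reactive astrocyte genes tested (median 0.37, or 0.27 without cKO 2 and 0.18 with the term for library numbers), Vim, the intermediate filament vimentin, was the only one, at 157.2 and 180.6 in the controls against 219, 446, 285 and 309.6 in the cKO libraries (difference 0.85, p 0.032). Of 22 cholesterol genes 17 differences were above 0, with a median of 0.16 (0.13 without cKO 2), and none reached that level. In 19 glycolysis and glycogen genes 12 differences were below 0 (median -0.13, or -0.06 without cKO 2), 3 without overlap, and none reached it either. Hk1, which starts glycolysis, was 368 and 414 against 273, 264, 309 and 265 (difference -0.49, p 0.0935). Of 18 astrocyte transcription factors (median 0.34, or 0.19 without cKO 2), Id4 had an unadjusted p under 0.05, at 265 and 422 against 573, 1044, 453 and 531 (difference 0.88, p 0.0433), while Sox9 was 1427 and 1657 against 1457 to 1814. Immediate early and dissociation response genes had a median of 0.44 over 23 tested (0.30 without cKO 2), and none at an unadjusted p under 0.05. That list depended on the controls, with a median of 0.03 without control 1 and 0.82 without control 2. In 8 tested cell cycle genes the median was 0.50, or 0.38 without cKO 2 and -0.20 with the term for library numbers.

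**Figure D3:**
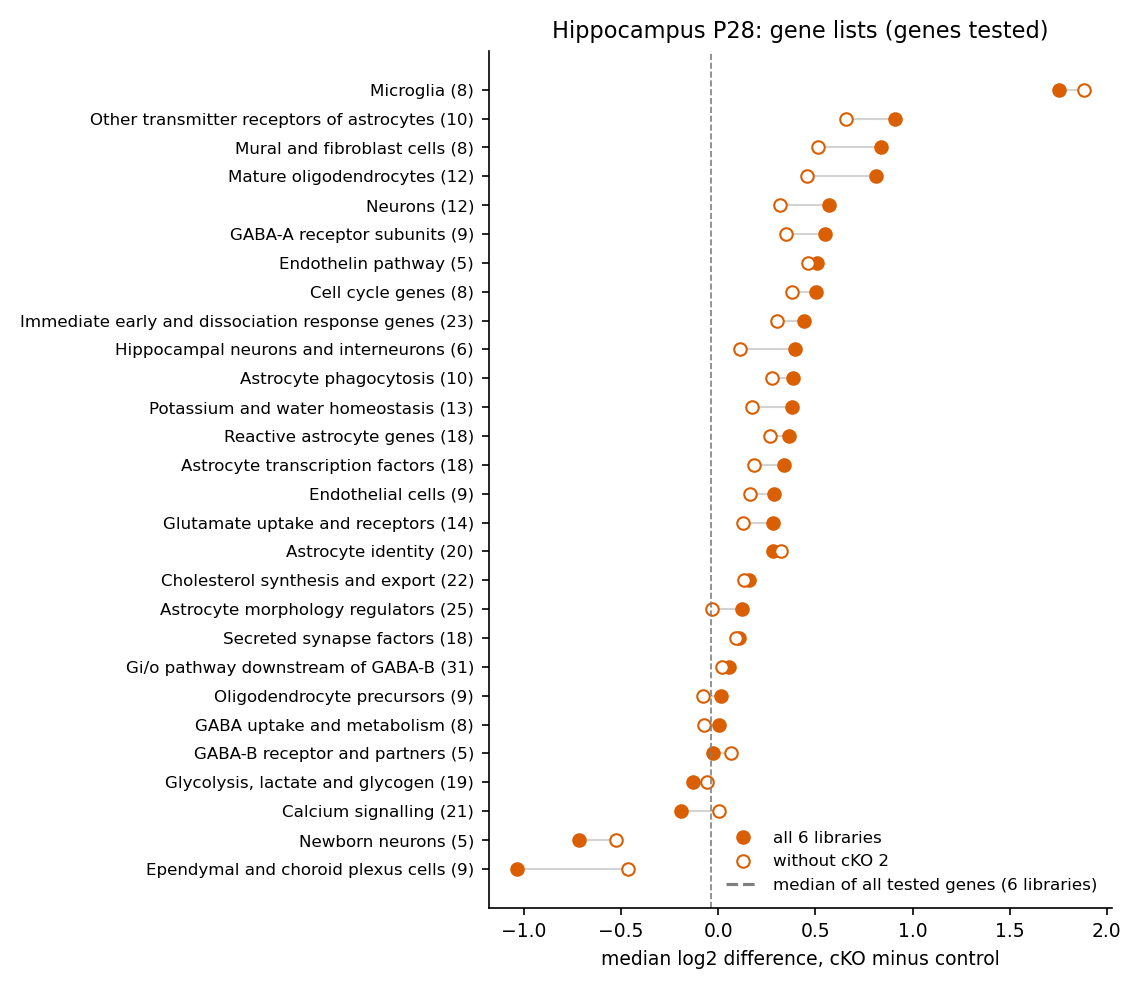
Median log2 difference, cKO minus control, of the tested members of each gene list with all 6 libraries (filled) and without cKO 2 (open); numbers in brackets are genes tested, and the dashed line is the median of all tested genes, -0.04. Microglial markers have the highest median, 1.75, and ependymal and choroid plexus markers the lowest, -1.04, which moves to -0.47 without cKO 2.

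Markers of other cells differed between libraries as well. Of 13 microglial genes 8 were tested, all with differences above 0, and the median was 1.75 (1.88 without cKO 2, and 0.92 with the term for library numbers). Their summed level was 169 and 135 in the controls against 236, 384, 252 and 994 in cKO 1 to 4, without overlap. P2ry12 was 26.6 and 31.1 against 37.8, 173, 75.1 and 191 (difference 1.74, p 0.0252), and Laptm5, a lysosomal protein of blood and microglial cells that DESeq2 called without cKO 2 (adjusted p 0.0267), had no reads in either control and 5.80, 28.9, 16 and 61.6 in the cKO libraries. Against a floor of 3 reads per library, Laptm5 was at least 11.2-fold higher in cKO. Tmem119, C1qa and Trem2 had no reads in 3 of the 6 libraries each. The part of microglial RNA in the differences of P2ry12, Laptm5 and Mertk was not tested.

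Mature oligodendrocyte markers had 11 of 12 differences above 0 and a median of 0.81 (0.46 without cKO 2, and -0.67 with the term for library numbers). Their sum was 4615.5 and 7705.5 in the controls against 5547.5, 20508, 9426 and 13952 in the cKO libraries, so cKO 1 lay between the controls. Markers of oligodendrocyte precursors had a median of 0.02 over 9 tested genes (-0.08 without cKO 2). Ependymal and choroid plexus markers had all 9 differences below 0 (median -1.04, or -0.47 without cKO 2), none without overlap. Their sum was 140113 and 68203 in the controls against 51132, 11339, 72288 and 127600.4 in the cKO libraries, and most of it is Ttr.

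Neuronal markers summed to 2086 and 2492 in the controls, 4111 in cKO 2 and 2387 to 2568 in the other cKO libraries. Of 12 tested, 8 had differences above 0 and 4 below, with a median of 0.57, or 0.32 without cKO 2. Nefh, the heavy neurofilament, was lower in each cKO library, at 350.4 and 219 against 27.1, 28.9, 182 and 139 (difference -2.03, p 0.0279). Of 9 newborn neuron genes 5 were tested, 1 with a difference above 0 and 4 below (median -0.72, or -0.53 without cKO 2). Their summed level overlapped, at 840.8 and 1328.3 in the controls against 1191, 1493.5, 844.7 and 716.9 in cKO 1 to 4. Dcx, a marker of newborn neurons such as those of the dentate gyrus, was 65.7 and 143.2 against 59.1, 15.9, 51.1 and 27.7 (difference -1.48, p 0.0431). Camk2a and Thy1, genes of excitatory and projection neurons, were at an unadjusted p under 0.05 in the other direction (differences 0.94 and 1.08, p 0.0377 and 0.0488), with groups that overlapped. Genes of hippocampal neurons and interneurons had a median of 0.40 over 6 tested, or 0.11 without cKO 2 and 0.07 with the term for library numbers. The interneuron genes Pvalb and Lhx6 had no reads in any of the 6 libraries. Endothelial markers summed to 589 and 576 in the controls against 437 to 869.5 in the cKO libraries, and mural and fibroblast markers to 256 and 403 against 418 to 770.1. Among endothelial genes, Flt1, a receptor for vascular growth factor, was 28.2 and 48 in the controls against 142.3, 268.7, 86.2 and 71.6 (difference 1.73, p 0.0128), and Abcb1a, an efflux pump of the blood-brain barrier, was also higher without overlap. Of 9 endothelial genes tested, 6 had differences above 0 and 3 below. Their median was 0.29, or 0.16 without cKO 2 and 0.97 with the term for library numbers. For mural and fibroblast cells the median was 0.84, or 0.51 without cKO 2. Of the mural genes, Abcc9, called by DESeq2 without cKO 2 (adjusted p 0.0384), was 0 and 4.4 in the controls against 36.8, 0, 39.1 and 30 in cKO 1 to 4. Globin genes of red blood cells had no reads in any of the 6. Whether these other cells had a part in any of the differences above was not tested.

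**Figure D4:**
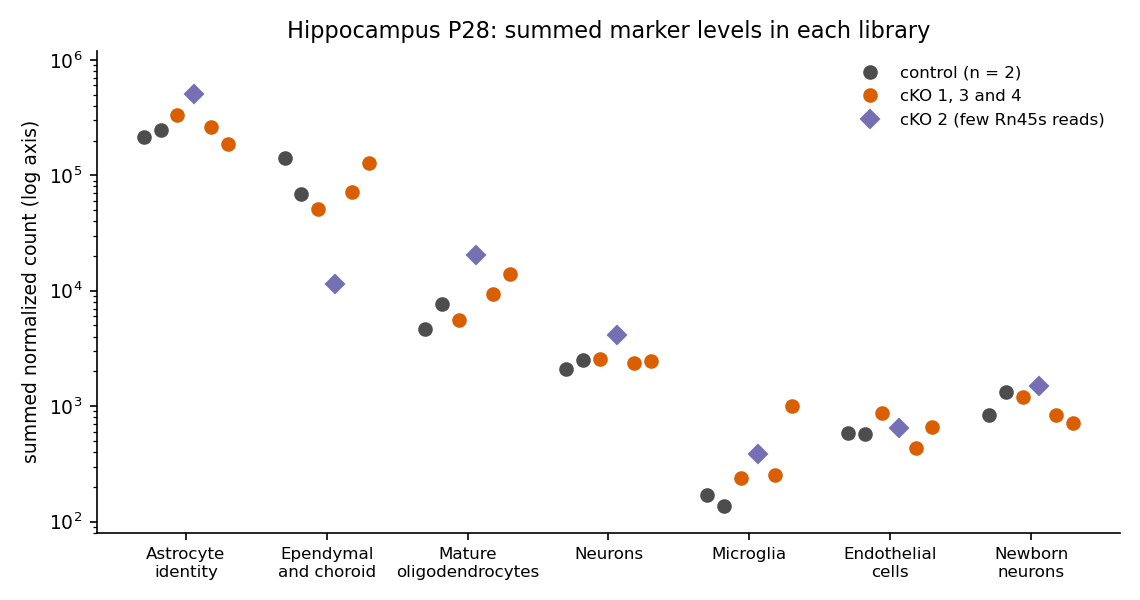
Summed normalized read count (log axis) of the markers of 7 cell classes in each hippocampal library; grey, controls; orange, cKO 1, 3 and 4; violet diamonds, cKO 2. The microglial sum is 135 to 169 in the controls against 236 to 994 in the cKO libraries, and the ependymal and choroid sum is lowest in cKO 2, at 11339.

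The same genotypes were profiled in cortex (4 control and 4 cKO libraries) and olfactory bulb (3 and 3), each in a table of its own. Gabbr1 was lower in cKO in both. Its log2 difference was -3.45 in cortex (SE 0.29, limma adjusted p 4.40e-05), -1.84 in hippocampus and -1.48 in olfactory bulb (SE 0.33, limma adjusted p 0.877). Limma called 1 gene in cortex (0.00982% of 10188), Gabbr1, and 0 in olfactory bulb (0% of 11539). The difference between regions was tested in one edgeR model over the 20 P28 libraries, taken as independent. Library numbers run consecutively across regions within a genotype, and whether such libraries share an animal is not given. The hippocampal difference in Gabbr1 was smaller than that of cortex by 1.63 on the log2 scale (unadjusted p 0.00347, edgeR adjusted p 1.00), and differed from olfactory bulb by -0.29 (unadjusted p 0.592, edgeR adjusted p 0.976). No gene passed for either pair of regions after adjustment (0% of 13413 each), with 436 and 629 at an unadjusted p under 0.05. Each is a smaller share than the 0.05 to be met if no gene differed.

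The genes chosen for their hippocampal difference varied in the other regions. Etnppl, at 1.94 in hippocampus, was 0.20 in cortex (SE 0.27) and 0.08 in olfactory bulb (SE 0.23). Vsnl1, at 2.64 in hippocampus, was -0.58 in cortex (SE 0.49) and 0.23 in olfactory bulb (SE 0.76). Slc13a3, Rasgrp1, Ednra and Pcdh1 lay between -0.24 and 0.35 in both. Adamts20 was -0.02 in cortex and -0.77 in olfactory bulb, where its groups did not overlap in the direction opposite to hippocampus. Cog2, at -2.43 in hippocampus, was 0.87 in cortex (SE 0.58) and 0.04 in olfactory bulb (SE 0.47), and Lbp was 0.67 in cortex (SE 1.06). Both genes were low there. Control means of Cog2 were 26.5 in cortex and 40.8 in olfactory bulb against 566 in hippocampus, and of Lbp 18.35 and 7.59 against 1143. In olfactory bulb Lbp was below the filter, and its cKO libraries (1 to 3.6) lay below the controls (5.7 to 8.5). Since the hippocampal values chose these genes, the gap between regions is a description.

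Etnppl, Ednra and Cog2 were above 0 in both other regions, and so were Kcnk1, Vcl and Slc1a4, whose levels there moved with the library numbers. The Kcnk1 difference was 1.34 in cortex (SE 0.68, limma p 0.0673) and 3.32 in olfactory bulb (SE 0.98, limma p 0.00649). Cortex controls 1 and 2, numbered up to 150, had 84.5 and 109.8 Kcnk1 reads, while controls 3 and 4, numbered above 150, had 974.5 and 1044.1. The later controls thus lay with the later cKO libraries, at 945.1 to 1190.7, and the early cKO 1 had 361.2. In olfactory bulb, the early controls had 25.3 and 13.6 Kcnk1 reads, the late control 459.9, and the cKO libraries, all late, 464.2 to 660.7. With the term for library numbers the Kcnk1 difference was 0.70 in cortex (SE 0.27, limma p 0.0197, adjusted p 0.999) and 0.28 in olfactory bulb (SE 0.45, limma p 0.551).

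Slc1a4 was split in the same way: its cortex controls had 262 and 235.9 early and 573.3 and 571.8 late, beside late cKO libraries at 510.7 to 621.7. Its difference of 0.39 in cortex and 0.58 in olfactory bulb was 0.15 and 0.07 with the term for library numbers. Vcl in cortex controls was 310.6 and 275.6 early and 540.4 and 562.8 late, and its differences of 0.20 and 0.60 were 0.02 and 0.27 with the term. Cortex controls also split for Vsnl1, at 67.6 and 35 early and 133.7 and 142.4 late. For Adamts20 they were 9.5 and 7 early and 29.6 and 38 late. Olfactory bulb controls did not split so, with Vsnl1 at 36.7 and 366 early and 306.6 late, and Adamts20 at 39 and 66.4 early and 34.1 late. Mertk was 0.16 in cortex and 1.24 in olfactory bulb, or 0.05 and 0.43 with the term. In cortex Gabbr1 was -3.40 with the term (SE 0.28, limma adjusted p 4.44e-06). In hippocampus no control has a late number, so the late level of these genes without the knockout was not measured there.

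**Figure D5:**
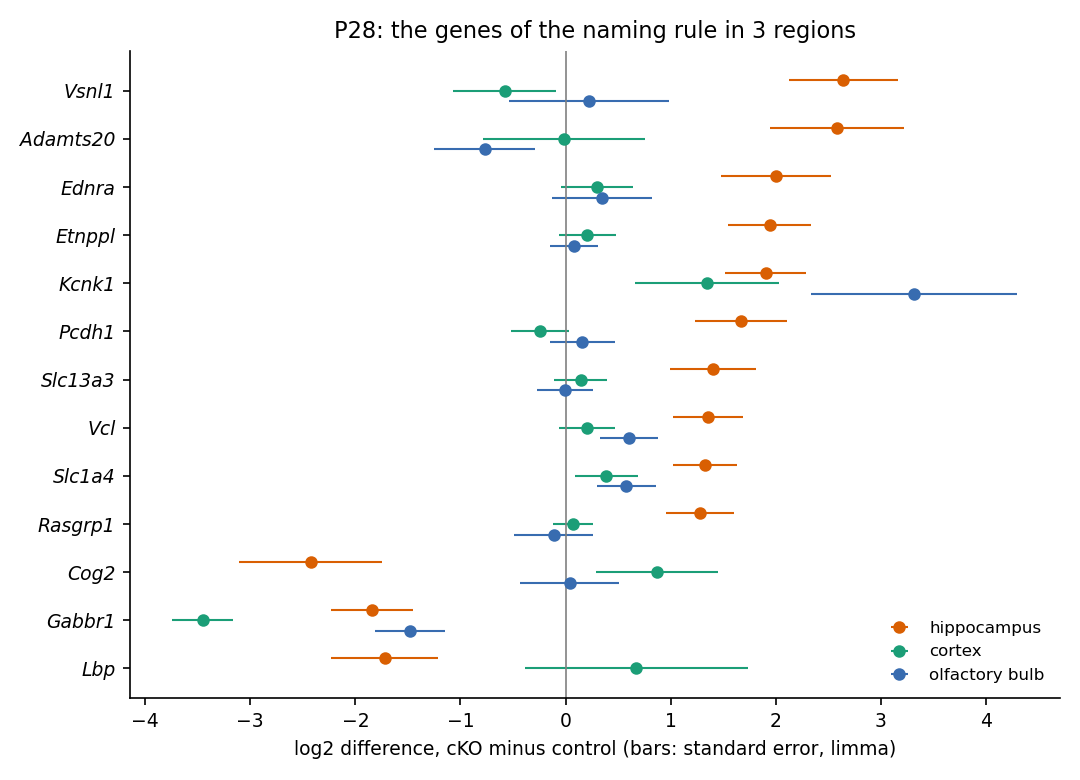
Log2 difference, cKO minus control, with its standard error from limma, for the genes of the naming rule in hippocampus (orange), cortex (green) and olfactory bulb (blue); genes were chosen by the hippocampal values, and Lbp was below the filter in olfactory bulb. Gabbr1 is below 0 in all 3 regions; Kcnk1 is above 0 in all 3 without a term for library numbers, with which it is 1.26, 0.70 and 0.28 in hippocampus, cortex and olfactory bulb.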

How the data were processed

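RNA of hippocampal astrocytes was profiled in 6 libraries from P28 mice, made from sub-nanogram to nanogram amounts of total RNA with an amplifying kit, per the labels' protocols. The submitters' processing notes name FastQC, MultiQC, STAR 2.5.0a, DESeq2 1.20.0 and mm10, and the counting program, strand setting and annotation are not given in the sources used here. The authors deposited a signal per gene that behaves as read counts divided by a size factor: in each library 100% of values were whole multiples of 1 read (tolerance 0.1). The deposited factors differed by at most 0.497% from median-ratio factors computed from these reads. Spreadsheet dates in place of 27 gene symbols were restored.

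Differences were tested in R 4.3.3 with limma 3.58.1 (trend) on log2(value + 1), for genes with a mean of at least 10, with Benjamini-Hochberg adjustment over all tested genes. Fold changes of low genes are understated on that scale. The quasi-likelihood test of edgeR 4.0.16 and DESeq2 1.42.0 were run on the recovered reads, and differences between regions in edgeR. The scripts were tested on simulated data. Positions are from GENCODE M21, in which 23376 of 24421 symbols were found. The median standard error was 0.516 (0.375 without cKO 2).

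Genes named are Gabbr1 and Gabbr2, defining members and those with the smallest p of each list, all genes past the limma threshold, and up to 10 genes a direction with the largest difference. The last had a mean at or above the median, groups without overlap, and limma p under 0.01 with and without cKO 2. A few list members were added for their role after their values were seen. Members and lists were chosen with earlier results of these data known. Some results are not reported here. A term for library numbers above 150 was added to the limma fits after seeing the data.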

Additional observations from a re-analysis of the deposited data

Results flagged for a closer look

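Of 129 genes and sums examined among the 4 cKO libraries, 15 had 1 library far from the other 3 (Dixon's ratio above its 95% critical value), and in all 15 it was cKO 2. That critical value is for independent groups of normal values. Many of these genes were picked from the same libraries and the sums share genes, so no count expected by chance can be set beside it. Of astrocyte genes, Aqp4 was 14460 in cKO 2 against 5066 to 6416 in the other cKO libraries, and Atp1b2, a sodium pump subunit, 31490 against 8046 to 11140. Adra1a was 249.9 against 55.9 to 65.8, Gabrb1 553.2 against 369.6 to 376.9, Gabrg1 1024 against 595.6 to 639.9, and Pcdh1 476.7 against 168 to 209.

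Of other cells' genes, Dkk3 of hippocampal neurons was 1745 against 656 to 802, and Neu4 of the oligodendrocyte lineage 63.56 against 11.6 to 19.2. Xist was 11970 against 0 to 7.70, and the Y-linked Kdm5d was 0 against 184 to 202. Summed levels stood apart for the endothelin pathway (3367 against 2830 to 2917), astrocyte transcription factors (42470 against 15000 to 19510), sex chromosome genes (11970 against 1144 to 1285), neurons (4111 against 2387 to 2568) and hippocampal neurons and interneurons (2151 against 1122 to 1168).

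Adamts20 went in opposite directions in 2 regions, at 2.59 in hippocampus and -0.77 in olfactory bulb, without overlap of the groups in either. The difference was 3.22 on the log2 scale (unadjusted p 0.00783, edgeR adjusted p 0.927).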

How the results depend on the processing

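With array weights, which gave it 0.154 against 1.02 to 2.08 for the others, the Gabbr1 difference was -1.99 (limma adjusted p 0.00657) and 4 genes passed (Cog2, Gabbr1, Kcnk1 and Vsnl1). Leaving out 1 library at a time gave -2.10 to -1.66 for Gabbr1 and 0 to 1 genes past the threshold, and DESeq2 called 1. Gabbr2 changed sign, within its error, under quantile normalization (0.002), array weights (0.156), edgeR (0.056), DESeq2 (0.053), edgeR on thinned reads without Rn45s (0.16), a term for library numbers above 150 (0.64), and when single libraries were left out (-0.25 to 0.243, above 0 without control 2, 0.146, and without cKO 2).

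Without cKO 2, Gabbr1 no longer passed with no filter on low values (-2.098, limma adjusted p 0.871), quantile normalization (-2.057, limma adjusted p 0.108), limma without trend (-2.098, adjusted p 0.604), edgeR on thinned reads (-2.001, adjusted p 0.054) or the term for library numbers (-2.26, limma adjusted p 0.06). Leaving out a further library gave -2.327 to -1.95, and it passed only without cKO 4. Genes past the threshold then numbered 1 with that term, 0 in each of the other settings just named, 12 in DESeq2, and 0 to 2 when a further library was left out. The 2 called without control 1, E430025E21Rik and Ext2, were high in control 2. With single libraries left out, Gpr17 ranged from -0.677 to 0.068 (without control 2) and Kdm5d from -2.556 to 0.001 (without cKO 2). Mal (-0.601) and Mki67 (-0.252) changed sign with the term for library numbers, which was added after seeing the data. Of 1755 values of 89 named genes other than Gabbr1 and Gabbr2 under alternatives, these 4 had another sign. Some alternatives change only the filter, the variance model or the calls, and so could not change a sign. The genes were also picked from these libraries, so this count does not measure stability. Of 569 list medians, 35 moved by more than the spread, the SD of the list mean over the cKO libraries, cKO 2 included. The cause was not tested. No paired analysis was possible because the labels give no replicate numbers shared by the groups, only library numbers that each belong to 1 genotype. A fit with Xist as a covariate was not run, since no control library has high Xist.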
